A study of Homo sapiens with 2 samples.

Results

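The MHC class II genes and their regulator CIITA were followed across 5 human lung adenocarcinoma lines that had been mixed and profiled together. The 10 genes are HLA-DRA, HLA-DRB1, HLA-DPA1, HLA-DPB1, HLA-DQA1, HLA-DQB1, HLA-DMA, HLA-DMB, CD74 and CIITA. They were taken by symbol from the 36601 gene rows of the joint matrix. The 19 accessible regions (peaks) within 2 kb of their start positions, as the feature list gives those, were taken from 187920 peaks. All 10 genes had at least 20 UMIs (unique molecular identifiers, each standing for 1 captured RNA molecule) and were measured. Of the 19 peaks, 16 had at least 100 counts and were measured.

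The lines were A549, H1975, H2228, H838 and HCC827, each an established, untreated adenocarcinoma line. They were cultured apart in the same serum-containing medium to near full confluence, frozen and pooled in equal parts. The droplets of a single capture were divided in 2, and the larger fraction (80%) is described here by its RNA library and its ATAC library. ATAC-seq cuts open chromatin with a transposase, so that counts over a peak measure accessibility. Every barcode carried both readouts. Since each readout comes from 1 library, and each line from 1 culture, there is no replicate check, so no test was made, and intervals cover counting error only.

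MHC class II molecules are pairs of an alpha and a beta chain that show peptides from the endosome to CD4 T cells. HLA-DR, HLA-DP and HLA-DQ are the presenting molecules, CD74 is the invariant chain that escorts them to the endosome, and HLA-DM (HLA-DMA with HLA-DMB) exchanges the CD74 remnant for other peptides. CIITA is the coactivator that turns these genes on without binding DNA itself. It is recruited by the RFX complex, CREB and NF-Y, which sit on the X and Y boxes of class II promoters. Professional antigen-presenting cells express the genes constitutively, while many epithelial cells acquire them under interferon gamma.

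The upstream bases of 6 members are shown. They lie in start peaks described further on. Of these peaks, 5 were past 2-fold in the line with the highest class II RNA, and that of HLA-DMA fell short. The bases of HLA-DMB also lie in a start peak short of 2-fold and are not shown. The bases shown come from GRCh38.p14 in RefSeq and are written 5′ to 3′ on the gene's own strand. They are the 140 bases that end at the base before the annotated start. Capitals mark matches to ACNGATG, part of an X-box pattern, and to ATTGG, the Y-box core (CCAAT on the other strand). Both patterns were chosen after the sequences had been read.
HLA-DRB1, chr6:32589849-32589988, minus strand: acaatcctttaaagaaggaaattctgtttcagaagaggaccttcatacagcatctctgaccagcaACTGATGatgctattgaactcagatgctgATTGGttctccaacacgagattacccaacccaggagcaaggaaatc
HLA-DQB1, chr6:32666658-32666797, minus strand: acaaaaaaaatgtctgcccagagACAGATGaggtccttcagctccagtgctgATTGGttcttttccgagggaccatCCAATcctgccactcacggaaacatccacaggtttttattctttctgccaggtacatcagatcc
HLA-DMA, chr6:32953098-32953237, minus strand: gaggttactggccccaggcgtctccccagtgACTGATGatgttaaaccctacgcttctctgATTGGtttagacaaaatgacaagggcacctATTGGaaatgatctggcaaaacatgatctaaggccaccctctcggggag
HLA-DQA1, chr6:32637266-32637405, plus strand: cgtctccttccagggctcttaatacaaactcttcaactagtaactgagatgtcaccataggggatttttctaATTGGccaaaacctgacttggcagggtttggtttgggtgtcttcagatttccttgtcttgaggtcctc
HLA-DPB1, chr6:33075850-33075989, plus strand: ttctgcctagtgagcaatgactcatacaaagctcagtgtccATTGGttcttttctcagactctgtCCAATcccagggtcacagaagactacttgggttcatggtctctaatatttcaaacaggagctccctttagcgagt
CD74, chr5:150412911-150413050, minus strand: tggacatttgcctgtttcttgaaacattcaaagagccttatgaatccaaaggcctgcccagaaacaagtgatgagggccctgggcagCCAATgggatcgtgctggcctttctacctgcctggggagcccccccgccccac

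Of the 10 members, 8 had a promoter window of 300 bases in the RefSeq table; HLA-DRA and CIITA had none. Searched on both strands, the X-box letters were in the windows of 5 members (HLA-DRB1, HLA-DQB1, HLA-DMA, HLA-DMB and, further upstream than the bases shown, CD74), against 7.65% of the 35116 windows in the table. The Y-box letters were in those of 7 members, against 34.6% of all windows. The 2 patterns followed each other on 1 strand with 10 to 30 bases between them in 3 members and in 54 windows of the table (0.154%). The gap was 22 bases in HLA-DRB1, 22 in HLA-DQB1 and 23 in HLA-DMA. Since the patterns were chosen after the sequences had been read, the shares of all windows are no test of enrichment. A match describes letters only and does not show that a factor was bound. Other forms of the X box were not searched for, so a window without these letters may still hold one.

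Lines were told apart by clustering RNA and ATAC profiles separately, with the members, the other class II genes and their neighbouring peaks left out. A barcode was used where both clusters named the same line, which held for 2474 of 2741 kept barcodes (90.3%). The line with the highest class II RNA is called the S100A9 line after its marker, a calcium-binding inflammatory protein. It held 481 barcodes and 9049873 UMIs, the DHRS2 line 231 barcodes and 3273862, the A549-like line 747 and 4407990, the SLC30A8 line 583 and 5481602, and the HCC827-like line 432 and 6073074. Which of H1975, H2228 and H838 the S100A9, DHRS2 and SLC30A8 lines are was not settled. The markers fixed for each line were all highest in that line (5, 5, 12, 6 and 9 markers in the order above). Since the clusters were named by fixed markers, this is not a separate check of the names. Of the unmatched barcodes, 221 had an S100A9-line RNA profile and a DHRS2-line ATAC profile, with a median of 62314 UMIs, against 13131 in the S100A9 line and 10094 in the DHRS2 line. They were left out of both lines.

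All 10 members were at least 2-fold higher in the S100A9 line than in the mean of the other 4 lines, where 8.7% of 19650 measured genes were. All 10 were also at least 2-fold above the highest other line, which held for 3.72% of genes. Summed over the members, the RNA level was 4759 CPM (UMI counts scaled to each line's total; exact Poisson 95% interval 4714 to 4804) in the S100A9 line. It was 247 CPM in the DHRS2 line, 218 in the A549-like line, 150 in the SLC30A8 line and 138 in the HCC827-like line. The median mitochondrial share of UMIs was 8.79% in the S100A9 line, 5.66% in the DHRS2 line and 13.7% in the HCC827-like line. It was 0.42% in both the A549-like and SLC30A8 lines, and no comparison of lines at a matched share was made. With lines taken from RNA clusters alone, which put the 221 mixed barcodes into the S100A9 line, its sum was 3017 CPM. The median log2 ratio of CPM + 1 in the S100A9 line was 4.81 over the members and -0.25 over all measured genes.

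**Figure D1:**
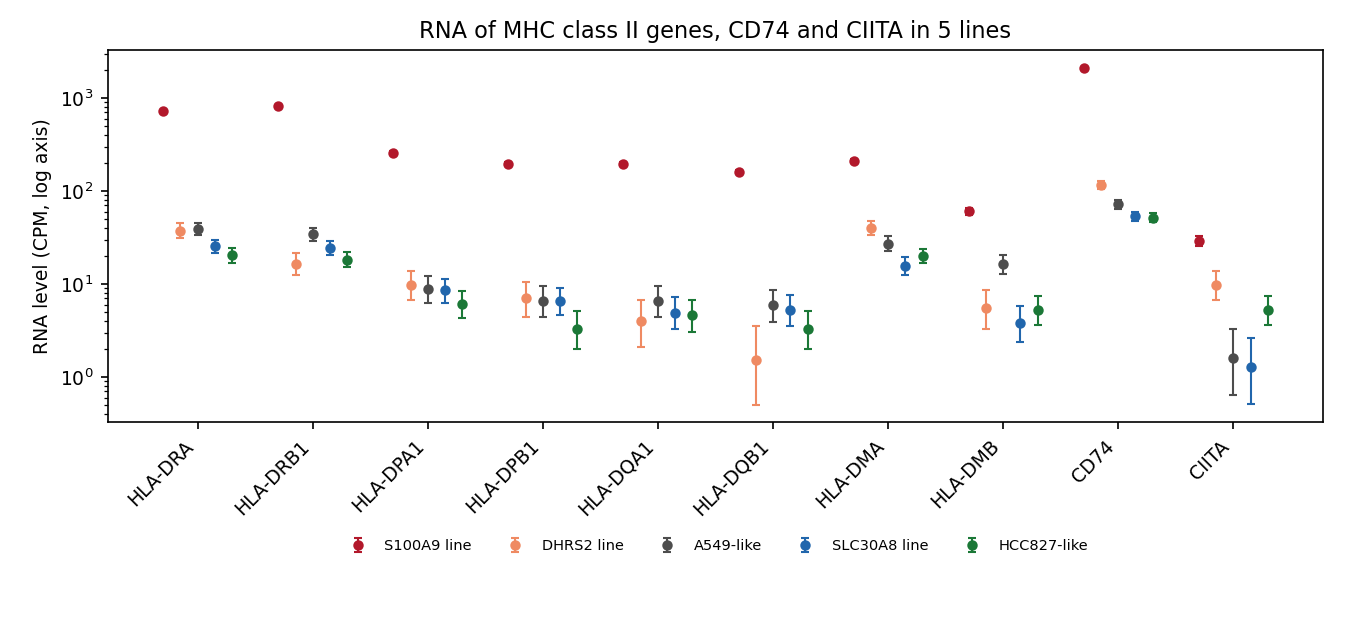
RNA level of each member in CPM on a log axis, 1 point per line with its exact Poisson 95% interval, from 1 library. The S100A9-line point is the highest for all 10 genes, from 29.0 CPM for CIITA to 2111 CPM for CD74.

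Among the presenting molecules, HLA-DRA, the alpha chain of HLA-DR, was at 730 CPM in the S100A9 line (712 to 747), against 37.6 in the DHRS2 line, 39.5 in the A549-like line, 25.4 in the SLC30A8 line and 20.4 in the HCC827-like line. HLA-DRB1, a beta chain that pairs with it, was at 813 CPM in the S100A9 line, against 16.5, 34.3, 24.6 and 18.3 CPM in the other lines in the same order. The intervals of the S100A9 line lay far from those of the others for both genes. Reads of HLA-DRB1 and its near copy HLA-DRB5 can be confused, and HLA alleles differ between lines, so values of single class II genes can shift with how reads were assigned.

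The HLA-DP and HLA-DQ pairs, the other 2 presenting molecules, were likewise highest in the S100A9 line. HLA-DPA1 was at 258 CPM in the S100A9 line and between 6.09 and 9.77 in the others, and HLA-DPB1 at 194 CPM and between 3.29 and 7.03. HLA-DQA1 was at 195 CPM in the S100A9 line and between 3.97 and 6.58 in the others. HLA-DQB1 was at 159 CPM in the S100A9 line and between 1.53 and 5.90 in the others. HLA-DQB1 lies beside an antisense gene, and whether the counting used strand is not given in the sources used here. The log2 ratio against the mean of the other lines ran from 4.53 to 5.06 over the 6 genes of the presenting chains. With lines taken from ATAC clusters alone, where the mixed barcodes count as DHRS2 line, it ran from 2.93 to 3.03.

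The loading and escort genes were highest in the S100A9 line as well, with smaller ratios for HLA-DM. CD74 was at 2111 CPM in the S100A9 line (2081 to 2141), against 115 in the DHRS2 line, 71.7 in the A549-like line, 53.5 in the SLC30A8 line and 51.5 in the HCC827-like line, a log2 ratio of 4.83. HLA-DMA was at 210 CPM in the S100A9 line, against 40.0, 27.2, 15.7 and 20.1 CPM in the others, a log2 ratio of 2.98. HLA-DMB was at 60.8 CPM in the S100A9 line, against 5.50, 16.3, 3.83 and 5.27 CPM, a log2 ratio of 2.82. In the other lines HLA-DMA thus stood at 7.46% to 19.0% of its S100A9-line level, while CD74 stood at 2.44% to 5.47%.

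CIITA, the regulator, had 262 UMIs in the S100A9 line, or 29.0 CPM (25.6 to 32.7). The DHRS2 line had 32 UMIs and 9.77 CPM (6.69 to 13.8), the A549-like line 7 UMIs and 1.59 CPM (0.638 to 3.27), the SLC30A8 line 7 UMIs and 1.28 CPM (0.513 to 2.63), and the HCC827-like line 32 UMIs and 5.27 CPM (3.60 to 7.44). The S100A9 line was above all others. The intervals of the DHRS2 and HCC827-like lines overlapped each other and not those of the A549-like and SLC30A8 lines.

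Free RNA in the suspension gives every droplet some UMIs of genes it does not express, so the low levels were set beside 7 genes of the S100A9 line that are not members. These genes (LCN2, SAA1, S100A9, CST1, LINC02755, ATP10B and BMP3) stood at 0% to 7.04% of their S100A9-line level in the DHRS2 line. They stood at 0% to 12.9% in the A549-like line, 0% to 10.2% in the SLC30A8 line and 1.66% to 12.1% in the HCC827-like line. HLA-DRA, HLA-DRB1, HLA-DPA1, HLA-DPB1, HLA-DQA1, HLA-DQB1 and CD74 were within these ranges in all 4 lines. Their levels there do not separate expression from free RNA. The ranges assume that the 7 genes are silent in the other lines, which was not tested. The S100A9 peak was at 70.0% of its S100A9-line accessibility in the DHRS2 line and at 77.3% in the SLC30A8 line. The LCN2 peak was at 37.4% in the HCC827-like line. The SAA1 peak was at 2.75% in the DHRS2 line and 1.31% in the HCC827-like line.

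HLA-DMA, HLA-DMB and CIITA stood above the range, each in 2 of the 4 lines. CIITA was at 33.8% of its S100A9-line level in the DHRS2 line (23.1 to 47.7) and at 18.2% in the HCC827-like line (12.4 to 25.7). With lines taken from ATAC clusters alone, which put the mixed barcodes into the DHRS2 line, the DHRS2 value was 65.3%. HLA-DMA was at 19.0% in the DHRS2 line and at 12.9% in the A549-like line, level with the highest of the 7 genes to 3 digits. HLA-DMB was at 26.9% in the A549-like line (21.0 to 33.8) and at 9.05% in the DHRS2 line (5.36 to 14.3), whose interval reached into the range. In the SLC30A8 line no member was above it.

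**Figure D2:**
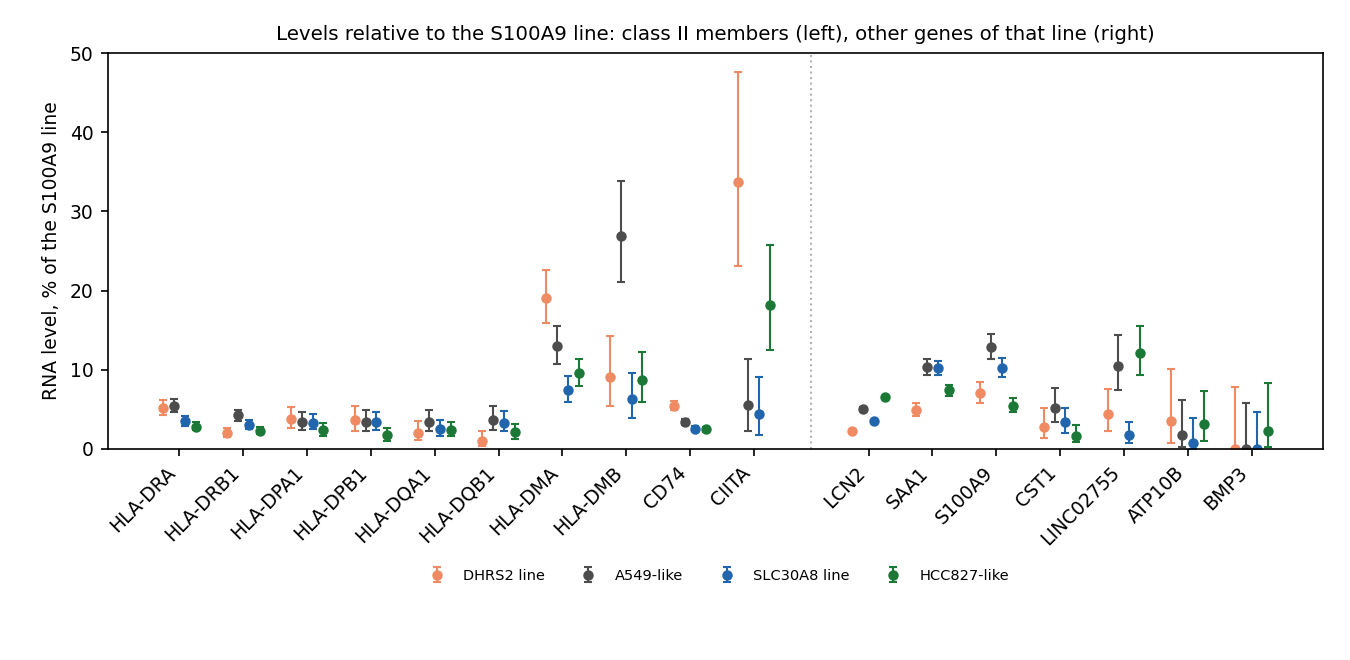
RNA level in the other 4 lines as percent of the level in the S100A9 line, with exact Poisson 95% intervals of the other line's count, for the 10 members (left of the dotted line) and 7 other genes of the S100A9 line (right). CIITA in the DHRS2 line (33.8%) and HLA-DMB in the A549-like line (26.9%) are the 2 highest points.

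The DHRS2 line was then set against the mean of the A549-like, SLC30A8 and HCC827-like lines alone. CIITA was the 1 member of 10 at least 2-fold higher, at 9.77 CPM in the DHRS2 line against 2.71 CPM in those 3 lines (log2 ratio 1.54), where 9.08% of genes were. A count of 1 in 10 is near that share. CD74 was at 115 against 58.9 CPM (0.96) and HLA-DMA at 40.0 against 21.0 CPM (0.90). HLA-DMB, the partner of HLA-DMA, was lower, at 5.50 against 8.48 CPM (-0.54). The presenting genes showed no shared direction: HLA-DRA was at 37.6 against 28.4 CPM (0.39), HLA-DRB1 at 16.5 against 25.7 CPM (-0.61) and HLA-DQB1 at 1.53 against 4.83 CPM (-1.21). In the 182 DHRS2-line barcodes that marker genes also called, CIITA was at 10.4 CPM, 33.1% of the level in the 304 S100A9-line barcodes called the same way. HLA-DMA was at 13.5% and CD74 at 4.34% in those barcodes.

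Accessibility near the members was also highest in the S100A9 line. Of the 16 measured member peaks, 12 were at least 2-fold higher in the S100A9 line than in the mean of the other lines, where 13.2% of 96563 measured peaks were. All 16 were highest in the S100A9 line, and 9 were at least 2-fold above the highest other line, where 4.94% of peaks were. The 19 peaks summed to 277 CPM of peak counts in the S100A9 line (266 to 288), against 95.8 in the DHRS2 line, 54.9 in the A549-like line, 47.8 in the SLC30A8 line and 58.6 in the HCC827-like line. Peak intervals were computed on counts divided by 2, because a fragment usually adds 2 counts.

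The CIITA start peak, chr16:10876705-10877618, was at 20.9 CPM in the S100A9 line (18.0 to 24.2) and at 11.8 CPM in the DHRS2 line (8.59 to 15.9). It was at 0.836 CPM in the A549-like line, 1.34 in the SLC30A8 line and 1.16 in the HCC827-like line. A second CIITA peak, chr16:10878438-10879297, was at 24.4 CPM in the S100A9 line and 11.4 in the DHRS2 line, against 0.558, 2.26 and 3.62 CPM in the other 3. At both peaks the S100A9 and DHRS2 lines stood apart from the rest and from each other. The HCC827-like line, with more CIITA RNA than the A549-like and SLC30A8 lines, had a start peak at their level.

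The CD74 start peak, chr5:150412412-150413322, holds the CD74 bases printed above. It was at 44.7 CPM in the S100A9 line (40.3 to 49.4) and 13.5 in the DHRS2 line (9.99 to 17.8), against 1.77, 4.10 and 3.36 CPM in the A549-like, SLC30A8 and HCC827-like lines. The HLA-DRA start peak, chr6:32439351-32440261, was at 10.9 CPM in the S100A9 line and 5.45 in the DHRS2 line, against 1.39, 3.60 and 1.16 CPM. Its DHRS2-line interval (3.33 to 8.41) overlapped that of the SLC30A8 line (2.24 to 5.47). The HLA-DPB1 start peak, chr6:33075479-33076369, was at 11.6 CPM in the S100A9 line and 6.81 in the DHRS2 line, against 2.83, 2.93 and 2.85 CPM. These 3 peaks and the 2 CIITA peaks were the 5 of 16 measured member peaks at least 2-fold higher in the DHRS2 line than in the mean of the A549-like, SLC30A8 and HCC827-like lines, where 15.7% of peaks were.

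HLA-DQA1, HLA-DQB1 and HLA-DRB1 had another pattern. The HLA-DQA1 start peak, chr6:32636685-32637549, was at 16.5 CPM in the S100A9 line (13.9 to 19.5) and had 0 counts in the DHRS2 line, which allows up to 1.00 CPM. It was at 0.232, 0.418 and 0.776 CPM in the A549-like, SLC30A8 and HCC827-like lines. The HLA-DQB1 start peaks were at 17.2 CPM (chr6:32666250-32667149) and 23.7 CPM (chr6:32668028-32668944) in the S100A9 line and at 2.72 and 1.63 CPM in the DHRS2 line. The HLA-DRB1 start peak, chr6:32589402-32590309, was at 12.2 CPM in the S100A9 line and 0.545 in the DHRS2 line, against 1.81, 2.34 and 0.776 CPM in the others. The DHRS2 line was thus not apart from the other 3 at these regions.

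HLA-DMA and HLA-DMB had the smallest ratios among the start peaks when the S100A9 line was set against the mean of the others; against the highest other line the HLA-DPB1 start peak had a smaller one (log2 0.69). The HLA-DMA start peak, chr6:32952762-32953676, was at 38.1 CPM in the S100A9 line (34.1 to 42.4), against 21.9 in the DHRS2 line, 22.1 in the A549-like line, 17.2 in the SLC30A8 line and 19.5 in the HCC827-like line. The HLA-DMB start peak, chr6:32940587-32941493, was at 14.6 CPM in the S100A9 line, against 8.30, 8.36, 3.76 and 7.25 CPM. Neither reached 2-fold against the mean of the others (log2 ratios 0.88 and 0.98). The flanking peaks of CD74 (0.81) and HLA-DPA1 (0.61) were the other 2 measured peaks short of 2-fold.

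Flanking peaks of HLA-DPB1, HLA-DQB1 and HLA-DMB were past 2-fold in the S100A9 line. The peak chr6:33073241-33074120, within 2 kb of the HLA-DPB1 start, also overlaps a RefSeq promoter window of HLA-DPA1. It was at 8.75 CPM in the S100A9 line (6.90 to 11.0), against 2.31, 1.30, 1.34 and 0 CPM in the DHRS2, A549-like, SLC30A8 and HCC827-like lines, a log2 ratio of 2.12. The flanking peak of HLA-DQB1 was at 6.51 CPM in the S100A9 line and between 0.465 and 1.91 in the others, and that of HLA-DMB at 8.58 CPM and between 0.0837 and 2.07 in the others. Those of HLA-DRA, HLA-DRB1 and HLA-DMA had 74, 30 and 89 counts over all lines and were not measured. The HLA-DMA one was highest in the A549-like line, with 64 counts.

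**Figure D3:**
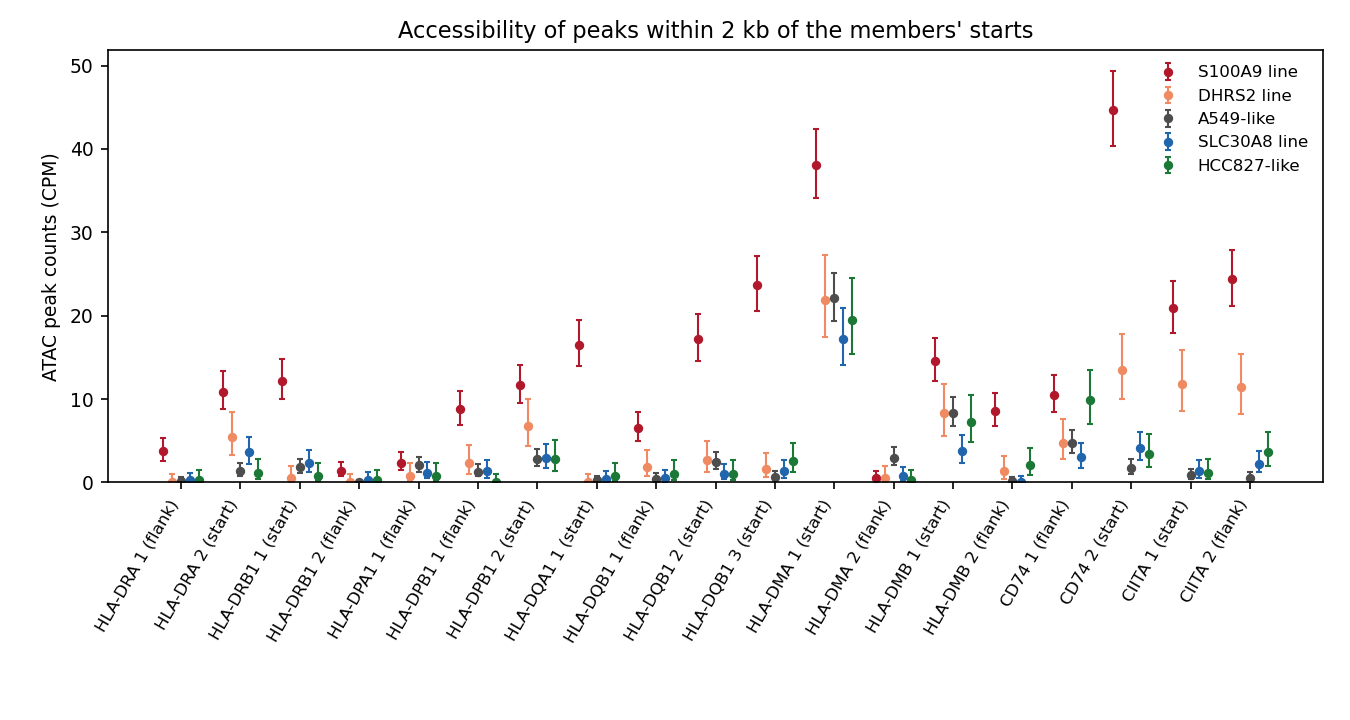
Accessibility of the 19 member peaks in CPM of peak counts, 1 point per line with its exact Poisson 95% interval, where (start) marks a peak over the gene's start and (flank) one up to 2 kb away. The DHRS2 line stands above the A549-like, SLC30A8 and HCC827-like lines at the CIITA peaks and the CD74 start, and beside them at HLA-DQA1, HLA-DQB1 and HLA-DRB1.

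The other measured class II genes were also highest in the S100A9 line. HLA-DRB5, a second DR beta chain, was at 404 CPM in the S100A9 line and between 6.11 and 13.6 in the others. HLA-DOA, a chain of the HLA-DM modulator HLA-DO, had 159 UMIs (17.6 CPM) in the S100A9 line and 0 in the other 4. Its partner HLA-DOB was at 2.76 CPM in the S100A9 line and at 2.63 CPM in the HCC827-like line, and at most 0.454 CPM in the remaining lines. These were the 3 measured genes of 5, and all 3 were at least 2-fold higher in the S100A9 line than in the mean of the others, against 8.7% of all genes. For HLA-DOB the intervals of the S100A9 line (1.79 to 4.08) and the HCC827-like line (1.51 to 4.28) overlapped.

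The factors that occupy class II promoters were expressed in every line. Of 7 (RFX5, RFXAP, RFXANK, NFYA, NFYB, NFYC and CREB1), 1 was at least 2-fold higher in the S100A9 line, against 8.7% of all genes, and none at least 2-fold lower, against 16.3%; their median log2 ratio was -0.21. RFXANK, an RFX subunit, was at 18.9 CPM in the S100A9 line, against 11.0, 5.67, 8.76 and 4.28 CPM in the DHRS2, A549-like, SLC30A8 and HCC827-like lines. CREB1 was at 130 CPM in the S100A9 line and between 141 and 161 in the others. NFYC, an NF-Y subunit, was lowest in the S100A9 line, at 36.7 CPM, against 43.7, 57.8, 89.4 and 87.1 CPM in the DHRS2, A549-like, SLC30A8 and HCC827-like lines.

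Of 10 genes of the interferon gamma pathway, 5 were at least 2-fold higher in the S100A9 line, against 8.7% of all genes, and none lower; their median log2 ratio was 1.07. IFNGR1, the ligand-binding receptor chain, was at 500.4 CPM in the S100A9 line and between 37.5 and 90.1 in the others. IFNGR2, its signalling partner, was at 131 CPM and between 30.5 and 49.4. SOCS1, a feedback inhibitor of the pathway, was at 32.2 CPM in the S100A9 line and between 1.28 and 2.75 in the others, and IRF1, a factor induced by it, at 39.7 CPM and between 10.8 and 18.1. GBP2, an interferon-induced GTPase, was at 42.3 CPM in the S100A9 line and between 0.907 and 19.4 in the others. JAK1, a receptor kinase, was at 239 CPM in the S100A9 line, against 115, 217, 163 and 265 CPM in the DHRS2, A549-like, SLC30A8 and HCC827-like lines. GBP1, another such GTPase, was at 10.9 CPM in the S100A9 line, against 13.7, 0.454, 18.6 and 12.5 CPM in the DHRS2, A549-like, SLC30A8 and HCC827-like lines.

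Of 9 genes of endosomal processing, 7 were measured and 5 were at least 2-fold higher in the S100A9 line, against 8.7% of all genes. CTSS, the cathepsin that trims CD74, was at 83.8 CPM in the S100A9 line and 82.5 in the HCC827-like line, against 6.41 in the DHRS2, 20.6 in the A549-like and 4.38 in the SLC30A8 line. CTSD was at 426 CPM in the S100A9 line and between 45.8 and 285 in the others, and LGMN, an asparaginyl endopeptidase, at 139 and between 43.3 and 85.8. CTSB and CTSL, the remaining 2, were at 286 and 379 CPM in the S100A9 line. In the others CTSB was between 88.2 and 179 CPM and CTSL between 59.4 and 277. None of the 5 was at least 2-fold above the highest other line (log2 ratios from 0.02 for CTSS to 0.69 for LGMN). SPPL2A, an intramembrane protease that clears the CD74 remnant, was at 92.8 CPM in the S100A9 line, against 68.4 in the DHRS2, 138 in the A549-like, 121 in the SLC30A8 and 60.3 in the HCC827-like line. IFI30, a lysosomal thiol reductase, was highest in the DHRS2 line, at 87.1 CPM, against 25.9 CPM in the S100A9 line. The CD74 ligand MIF, at 106 CPM, and co-receptor CD44, at 530.3 CPM, were not 2-fold higher in the S100A9 line, and both were highest in the DHRS2 line, at 142 and 704 CPM.

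Markers of immune cells, some of which express class II constitutively, were looked at over a list of 12. They summed to 43.4 CPM in the S100A9 line and to 65.4, 12.7, 25.5 and 53.7 CPM in the DHRS2, A549-like, SLC30A8 and HCC827-like lines. In the S100A9 line MS4A1, C1QA and FCER1A were at 0 and CD3E and LYZ at 1 UMI each. Of the 6 measured, 2 were at least 2-fold higher there, against 8.7% of all genes: ITGAX, an integrin of myeloid cells, at 12.3 CPM, and PTPRC, the pan-leukocyte CD45, at 6.52 CPM. Of the other measured ones, CSF1R was at 1.22 CPM and CD68 at 15.7 CPM in the S100A9 line, against 9.16 and 46.7 CPM in the DHRS2 line, while CD14 was at 6.30 and CD79A at 0.773 CPM in the S100A9 line. The endothelial marker PECAM1 was at 86.6 CPM in the S100A9 line and between 1.81 and 19.5 in the others, with CDH5 and KDR at 1 UMI each in the S100A9 line.

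Within the S100A9 line the members were found in nearly all barcodes. After each barcode was thinned to 3000 UMIs, 470 of 476 (98.7%, exact binomial 95% interval 97.3 to 99.5) had a member UMI, with 5 shallower barcodes left out. The share was 45.8% in the DHRS2, 43.8% in the A549-like, 35.8% in the SLC30A8 and 35.7% in the HCC827-like line, at median depths before thinning of 13147 UMIs in the S100A9 line and 10481, 5061, 7137 and 11910 in the others. The shallower barcodes left out there numbered 6, 147, 25 and 18. Without thinning the shares were 99.6%, 84.0%, 63.3%, 67.6% and 76.4% in the same order of lines. At least 5 member UMIs were found in 391 of the S100A9-line barcodes (82.1%) and in 0.889%, 0.833%, 0.358% and 1.69% of the others.

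The amount varied widely between barcodes of the S100A9 line. Thinned barcodes held 0 to 68 member UMIs, with a median of 14 and quartiles of 6 and 23. The variance was 8.93 times the mean, where counting error alone gives a ratio near 1, and 1.43 to 1.86 times the mean in the other lines, whose counts are low. Without CD74 in the sum the S100A9-line ratio was 5.94. For CD74 alone the ratio was 4.30, 19th of 362 genes with a mean of at least 1 UMI. LCN2, a secreted siderophore-binding protein, was first at 23.2, and the housekeeping genes EEF1A1 and GAPDH were at 2.63 and 1.71.

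Members varied together over the 476 barcodes, given here as descriptions with no test. The correlation of log2(UMI + 1) was 0.63 between HLA-DRB1 and CD74, 0.62 between HLA-DRA and CD74 and 0.58 between HLA-DRA and HLA-DRB1. That of CIITA with single members ran from -0.03 to 0.16, from 43 barcodes with a CIITA UMI. Those 43 averaged 20.3 UMIs of the other 9 members and the 433 without averaged 15.3, with medians of 19 and 13.

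Among the genes most like the summed members over these barcodes were LCN2 (r = 0.61), B2M (0.57), HLA-DRB5 (0.56), HLA-B (0.55), SAA1 (0.54), HLA-C (0.54), MT-CO1 (0.49), C3 (0.46) and CTSC (0.44), out of 8492 genes. B2M, HLA-B and HLA-C encode MHC class I chains, and SAA1 and C3 are acute-phase proteins. In the 396 barcodes with at least 5% mitochondrial UMIs the values for these 9 genes ran from 0.31 for MT-CO1 to 0.54 for LCN2. Over all 476 barcodes the housekeeping genes EEF1A1 and GAPDH were at 0.41 and 0.37, and S100A9 was at 0.18. The lower values listed, such as that of CTSC, were thus close to that of a housekeeping gene. All points come from 1 library at 1 depth.

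Class II RNA moved with the mitochondrial share of a barcode, whose part in the spread was not tested. The 80 barcodes under 5% had a median of 5 member UMIs, the 239 from 5% to 10% had 15, the 129 from 10% to 15% had 18, and the 28 from 15% to 20% had 7. The mean LCN2 UMIs were 11.9, 35.0, 38.5 and 29.0 in the same groups. The member peaks summed to 286 CPM (257 to 318), 293 (277 to 310), 266 (247 to 286) and 192 CPM (157 to 233). Barcodes under 5% thus had low class II RNA beside member peaks at the level of the next group. These 80 barcodes averaged 7.41 member UMIs, against 0.693 over the thinned barcodes of the A549-like line and 0.543 over those of the SLC30A8 line. The correlation of member UMIs with the mitochondrial percent was 0.25, with depth before thinning -0.02, and with member peak CPM per barcode 0.03, the last from sparse counts.

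**Figure D4:**
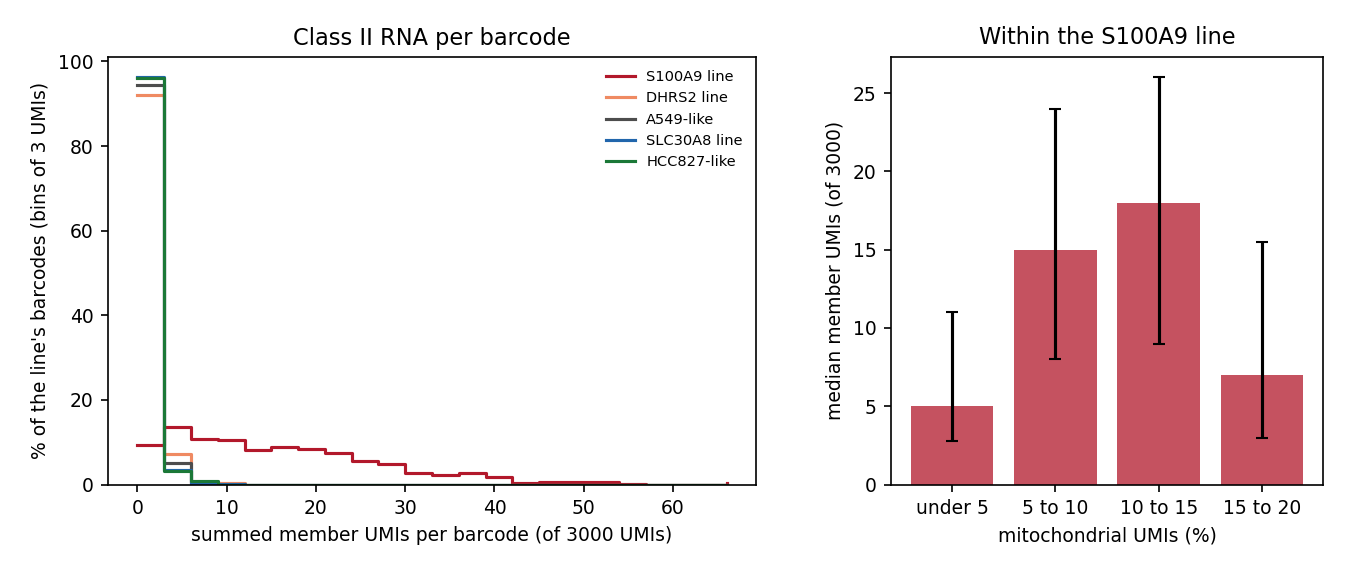
Left, summed member UMIs per barcode thinned to 3000 UMIs, as percent of each line's barcodes in bins of 3 UMIs. Right, median member UMIs of S100A9-line barcodes by mitochondrial percent, with error bars for the quartiles; medians are 5, 15, 18 and 7.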

How the data were processed

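The RNA and ATAC libraries of 1 capture were analysed, from 1 matrix of 3298 barcodes with 62477861 UMIs and 131221183 peak counts. The authors made the deposited counts of genes and peaks with Cell Ranger ARC 2.0.0 (per the file headers) on GRCh38 (per the submitters' processing notes). Gene and peak positions are as deposited, and nothing was normalized before deposit. Whether reads of near-identical HLA genes were shared is not given in the sources used here. The 10 members and all gene lists were chosen with earlier results of these data known.

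Barcodes with at least 1000 UMIs, 500 genes, 1000 peak counts and at most 20% mitochondrial UMIs were kept (2804). The 63 highest scores of the Scrublet doublet caller (scanpy 1.11.5), a number set by the rate of 0.8% per 1000 barcodes, were removed. RNA (2000 variable genes) and ATAC profiles were reduced to 30 components and clustered by the Leiden method with 20 neighbours, leaving out 16 class II gene rows and 31 peaks. Clusters were named by fixed markers. Of the 2474 matched barcodes, 1882 also had a call from markers alone (at least 3 marker UMIs, 80% from 1 line). The call named the same line for 1872 of these (99.5%). In the S100A9 line, 304 of 481 barcodes were so called. The same markers had named the clusters, so this is not a separate check.

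Counts were summed per line and scaled to the line's total. Ratios are log2 of CPM + 1 over the mean CPM of the other lines + 1, which understates changes of low genes, and 2-fold is the call. Genes needed 20 UMIs and peaks 100 counts over all lines. All members and the peaks within the 2 kb window are described; of other lists the rule allows the 4 genes with most UMIs and those past 2-fold in the highest line, and values of GBP1, IFI30 and the cell type markers were given after they had been seen. The 10 most alike genes are those with the highest Pearson correlation among genes with a UMI in at least 5% of barcodes. Alternatives used other line calls, TMM factors (edgeR 4.0.16), another pseudocount, windows, depths and filters. The gene ratios, thinning and Poisson intervals were run on simulated counts with counting error only. Such counts lack the spread between barcodes seen here, and intervals on halved peak counts were not simulated. The 20% fraction is not analysed here, and a few genes that these rules select are not reported here.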

Additional observations from a re-analysis of the deposited data

How the results depend on the processing

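The direction and the 2-fold call of all 10 members held under the 10 alternatives run (other line calls, scaling, pseudocount, filters, the highest other line): all 100 log2 ratios were between 1.47 and 5.28. With ATAC clusters alone, that of CD74 was 3.03. Of all genes, 3.72% to 10.7% were called under the same alternatives. The largest shift that TMM factors gave to the median log2 ratio in any line was 0.20 over genes and 0.27 over peaks. Of measured member peaks, 12 of 16 were at least 2-fold higher in the main setting, where 13.2% of all peaks were. With binarised counts it was 9 of 12, against 10.7% of all peaks. With no minimum count it was 14 of 19, against 9.99%. Within 10 kb it was 14 of 23, against 13.2%.

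The summed member level of 4759 CPM in the S100A9 line became 3017 with RNA clusters alone, which take in the 221 mixed barcodes. It was 5872 with marker gene calls, 5130 without the mitochondrial limit, 5266 with TMM factors and 4934 for barcodes with at least 5% mitochondrial UMIs. The share of barcodes with a member UMI was 99.8% at 5000 UMIs, 99.6% without thinning and 99.7% with marker gene calls. The variance to mean ratio was 13.0 at 5000 UMIs, 7.90 with marker gene calls, 5.94 without CD74 and 7.81 for barcodes with at least 5% mitochondrial UMIs. CIITA RNA in the DHRS2 line, 33.8% of the S100A9-line level, became 65.3% with ATAC clusters alone, which add the mixed barcodes to the DHRS2 line; over 4 other settings it was between 32.2% and 42.5%, and the CIITA start peak, 56.7%, was between 43.5% and 72.8% over 5 settings. The 5% mitochondrial limit and the CIITA settings were chosen after seeing the data. No paired analysis was possible because there is 1 library of each kind. CIITA rests on few UMIs, so its levels in single barcodes and in the low lines are limited by depth.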

Other observations

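The 221 barcodes with an S100A9-line RNA profile and a DHRS2-line ATAC profile held markers of both lines, with S100A9 at 158 CPM and DHRS2 at 99.8 CPM. Their median depths were 62314 UMIs and 131457 peak counts. The members summed to 2197 CPM in them, against 4759 CPM in the S100A9 line and 247 CPM in the DHRS2 line. CD74 was at 972 CPM, HLA-DRA at 334, HLA-DMA at 107 and CIITA at 20.8, each between the levels of the 2 lines.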
